A study of Mus musculus with 28 samples.

Results

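The libraries described here come from lung cells sorted as type 1 alveolar epithelial cells (AEC1), and they compare mice given papain together with FK506 with mice given papain alone. The members were chosen by their labels: 2 libraries of the papain + FK506 group and 2 of the papain group, 4 of the 28 libraries of the series. All mice were wild-type C57BL/6 animals aged 8 weeks. The papain + FK506 mice received FK506 by intraperitoneal injection, 0.2 mg daily for each animal, suspended in methyl cellulose (100 µL). Each of its courses lasted 3 days, with 2 days between them, and during the later course papain was given through the nose, 50 µg a day in PBS (40 µL). The papain mice received papain without FK506; whether they were given methyl cellulose is not stated in the sources used. A further 2 AEC1 libraries from untreated mice show where each gene lay without either agent. The labels do not say whether replicates came from separate or pooled animals.

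Papain is a plant cysteine protease that provokes allergic inflammation when inhaled. FK506 (tacrolimus) enters cells, binds the small immunophilin FKBP12, encoded by Fkbp1a, and the complex inhibits calcineurin, the calcium-dependent phosphatase that sends NFAT transcription factors to the nucleus. It is best known for blocking cytokine transcription in lymphocytes, but calcineurin and NFAT are also present in epithelial, muscle and mesenchymal cells. Type 1 alveolar cells are the flat cells that line most of the gas-exchange surface. Their usual markers are Ager, Hopx, Pdpn, Aqp5 and Cav1, while mesothelial cells cover the outer face of the lung and are known by Msln, Wt1 and Upk3b.

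The marker sums went against the label. Summed over 20 AEC1 markers, the level was 1164 and 1163 CPM in the papain + FK506 libraries, 1316 and 1222 CPM in the papain libraries and 1680 and 1882 CPM in the untreated libraries, where CPM is the deposited, depth-scaled read count. The same sum in the libraries sorted as type 2 alveolar cells (AEC2) was 6173 and 7072 CPM with papain + FK506 and 4936 and 5823 CPM with papain, so the sum was higher in the other sort. Ager and Aqp5 carried much of that sum, with Ager at 2400 and 3506 CPM in AEC2 with papain + FK506 and at 2497 and 3295 CPM in AEC2 with papain. Pdpn and Cav1 went the other way. Pdpn, podoplanin, which mesothelial and stromal cells also make, stood at 230 and 433 CPM with papain + FK506 and at 368 and 311 CPM with papain in AEC1, and was listed at 0 in all 4 AEC2 libraries. Cav1, caveolin, which many mesenchymal cells also make, stood at 173 and 38.9 CPM with papain + FK506 and at 367 and 169 CPM with papain in AEC1, and in AEC2 at 0 and 33.1 CPM with papain + FK506 and at 0 in both papain libraries. In AEC1, Ager, the receptor that marks the type 1 cell, stood at 94.5 and 114 CPM with papain + FK506 and at 37.1 and 111 CPM with papain. Hopx, a homeodomain protein, was at 0 and 1.2 CPM with papain + FK506 and at 3.2 and 0 CPM with papain. Aqp5, the apical water channel, was at 0 and 31.8 CPM with papain + FK506 and at 50.8 and 4.1 CPM with papain. Of the 20 AEC1 markers, 11 and 5 were listed at 0 in the papain + FK506 libraries and 6 and 8 in the papain libraries, and in AEC2 7 and 9 with papain + FK506 and 9 and 10 with papain. Epcam, a surface protein of epithelial cells, was listed at 0 and 8.3 CPM with papain + FK506 and at 0 in both papain libraries. Fibroblast genes summed to far more: 28298 and 19577 CPM with papain + FK506 and 28026 and 17072 CPM with papain, led by Mgp, the matrix Gla protein. In AEC2 libraries the same 20 fibroblast markers summed to 518 and 540 CPM with papain + FK506 and to 414 and 500 CPM with papain. Mesothelial markers, described below, also summed to more than the AEC1 markers in every AEC1 library. The cells are therefore called here by their sort, as AEC1 libraries, and no other cell type name is given to them.

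The libraries held 845684 and 837874 reads with papain + FK506, 932958 and 968134 with papain and 881354 and 859957 untreated, as recovered from the CPM values. A gene listed at 0 can stand for up to 3 reads, which is 3.5 and 3.54 CPM in the papain + FK506 libraries and 3.18 and 3.08 CPM in the papain libraries, for counting error only. Replicates differed beyond counting error. Of the genes at 20 CPM or more in either papain + FK506 library, 27.7% were listed at 0 in the other; for the papain pair the share was 30%. At 100 CPM or more these shares were 4.46% and 5.19%. The glycolytic enzyme Gapdh, present in all living cells, had a 0 in all 6 libraries, so a 0 means only that a gene is listed at 0. Papain replicate 2 stood apart: mitochondrially encoded RNA made up 9.71% (exact 95% interval 9.65 to 9.77) and 8.44% (8.38 to 8.5) of the papain + FK506 libraries, 9.14% (9.08 to 9.2) and 30.6% (30.5 to 30.7) of the papain libraries, and 19.4% (19.3 to 19.5) and 20.5% (20.4 to 20.6) of the untreated libraries. Values without this library are given for the mesothelial and smooth muscle medians, C3, Igfbp5 and Lrrn4. Most other results that lean on it are given only with it.

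**Figure D1:**
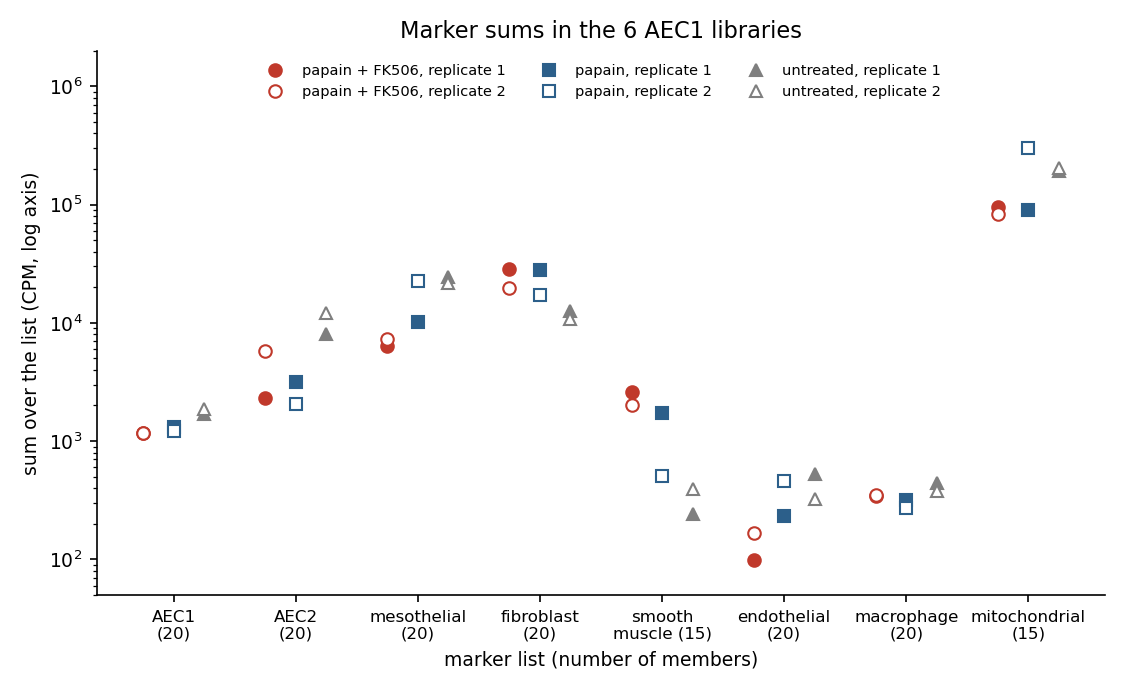
Sums of CPM (log axis) over marker lists in the 6 AEC1 libraries, with list sizes in brackets; filled and open symbols are replicates 1 and 2. The AEC1 sums lie between 1163 and 1882 CPM and below the fibroblast sums in every library; the mesothelial sums with papain + FK506, 6388 and 7336 CPM, lie below all other libraries; papain replicate 2 has the highest mitochondrial sum.

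No gene passed the test between papain + FK506 and papain. Limma on log2(CPM + 2), fitted to 8178 genes over the 6 AEC1 libraries, called 0 higher and 0 lower at an adjusted p of 0.05 (0% of the genes tested); the smallest adjusted p was 0.651. With p not adjusted and under 0.05, 241 genes were higher with FK506 (2.95%) and 255 lower (3.12%), together 496, where chance alone would give 409. EdgeR's quasi-likelihood test on the recovered reads also called 0 genes (226 at an unadjusted p under 0.05), with a coefficient of variation between replicates of 1.38. DESeq2 on the same reads called 84, 25 higher and 59 lower (0.431% and 1.02% of the 5799 genes it gave an adjusted p), and 43 of the 84 were listed at 0 in both libraries of either group. Limma's voom called 1, the ribosomal RNA precursor Rn45s, at -0.71 on the log2 scale (adjusted p = 0.00921). Since a call therefore depends on the tool, the descriptions that follow give the value in each library and count how often both papain + FK506 libraries lay on the same side of both papain libraries. Across all genes tested, both lay above in 17.3% and both below in 15%, after TMM scaling. The values printed are deposited CPM, so they can disagree with these counts where groups lie close. Such counts and these shares can hold genes that passed the filter on low values only through the group where they are high. Those genes are no support for a difference, and apart from the ones named as such they were not counted. The median log2 difference of all genes tested was 0.08, and log2 differences here are papain + FK506 minus papain on the log2(CPM + 2) scale.

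The mesothelial markers lay mostly lower with FK506, and limma called none of them. All 20 passed the filter on low values. In 13 of the 20 both papain + FK506 libraries lay below both papain libraries and in 0 above, beside 15% and 17.3% of all genes tested. The count was also 13 on the deposited values without further scaling. The median log2 difference was -1.42. By limma, 10 of the 20 were lower at an unadjusted p under 0.05, beside 3.12% of all genes tested. The list summed to 6388 and 7336 CPM with papain + FK506 and to 10199 and 22427 CPM with papain, against 24367 and 21605 CPM in untreated mice. In bulk libraries fewer cells of a type and less RNA per cell cannot be told apart.

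Msln, the gene of the surface protein mesothelin, stood at 65.3 and 172 CPM with papain + FK506 and at 411 and 588 CPM with papain; untreated mice had 686 and 664 CPM. The groups did not overlap, and both papain libraries were nearer to the untreated level than either papain + FK506 library was. The mean was 119 ± 75.6 CPM with papain + FK506 and 500 ± 126 CPM with papain (SD, n = 2 each), which differ by -2.34 on the log2 scale (SE 0.60; limma adjusted p = 0.651). DESeq2 gave -2.29 with an adjusted p of 0.0029. Msln lies on chromosome 17 at 25748613 to 25754378 (GRCm38.p6). Wt1, the transcription factor of the mesothelial lineage, stood at 117 and 120 CPM with papain + FK506 and at 348 and 234 CPM with papain (difference -1.40 on the log2 scale, SE 0.51). Upk3b, a uroplakin of the mesothelial surface, stood at 81.7 and 86.1 CPM with papain + FK506 and at 233 and 182 CPM with papain. In both genes the replicates of papain + FK506 were nearly equal and every papain library was higher.

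Aldh1a2, which makes retinoic acid, stood at 63 and 106 CPM with papain + FK506 and at 284 and 400 CPM with papain, which differ by -2.16 on the log2 scale (SE 0.60; limma adjusted p = 0.651). Slpi, a secreted inhibitor of leukocyte proteases, stood at 161 and 456 CPM with papain + FK506 and at 752 and 834 CPM with papain. Sulf1, which trims sulfate from heparan sulfate chains, stood at 56 and 66.1 CPM with papain + FK506 and at 177 and 250 CPM with papain. All 3 kept their groups apart, and their papain values were near the untreated ones (227 and 307 CPM for Aldh1a2). The most abundant members, C3 and Igfbp5, leaned on papain replicate 2. C3, the central complement protein, stood at 1805 and 2041 CPM with papain + FK506 and at 2710 and 7794 CPM with papain. Igfbp5, which binds insulin-like growth factors, stood at 1704 and 1328 CPM with papain + FK506 and at 2230 and 6491 CPM with papain, against 10041 and 9322 CPM in untreated mice. Lrrn4, a leucine-rich repeat membrane protein, overlapped at 1023 and 1467 CPM with papain + FK506 and 1111 and 2060 CPM with papain, and its log2 difference of -0.45 became 0.13 without papain replicate 2. Bnc1, a zinc finger protein, was the 1 member with a positive difference, at 36.2 and 21.2 CPM with papain + FK506 and 1.1 and 90.2 CPM with papain.

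Without papain replicate 2 the mesothelial median was -0.81, and without papain replicate 1 it was -2.02. Both papain + FK506 libraries lay below papain replicate 1 in 14 of 20 members (70% beside 33% of all genes tested) and below papain replicate 2 in 19 of 20 (95% beside 30.6%). Over 22 alternative settings the median stayed between -2.02 and -0.81, and both ends came from leaving out a papain library. The replicate block and the other variance models in limma cannot move this median. Set against untreated mice, with which both contrasts share libraries, the list median was -1.78 for papain + FK506 and -0.38 for papain. DESeq2 called 5 members lower and 0 higher: Msln, Aldh1a2, C3, Igfbp5 and Sulf1. Across the 5799 genes to which it gave an adjusted p, it called 1.02% lower and 0.431% higher. Fibroblast marker sums, given above, overlapped between the groups. The median log2 difference of the 18 fibroblast markers tested was 1.02, with 13 positive and 5 negative. Both papain + FK506 libraries lay above both papain libraries in 2 of the 18 and below in 3, beside 17.3% and 15% of all genes tested.

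**Figure D2:**
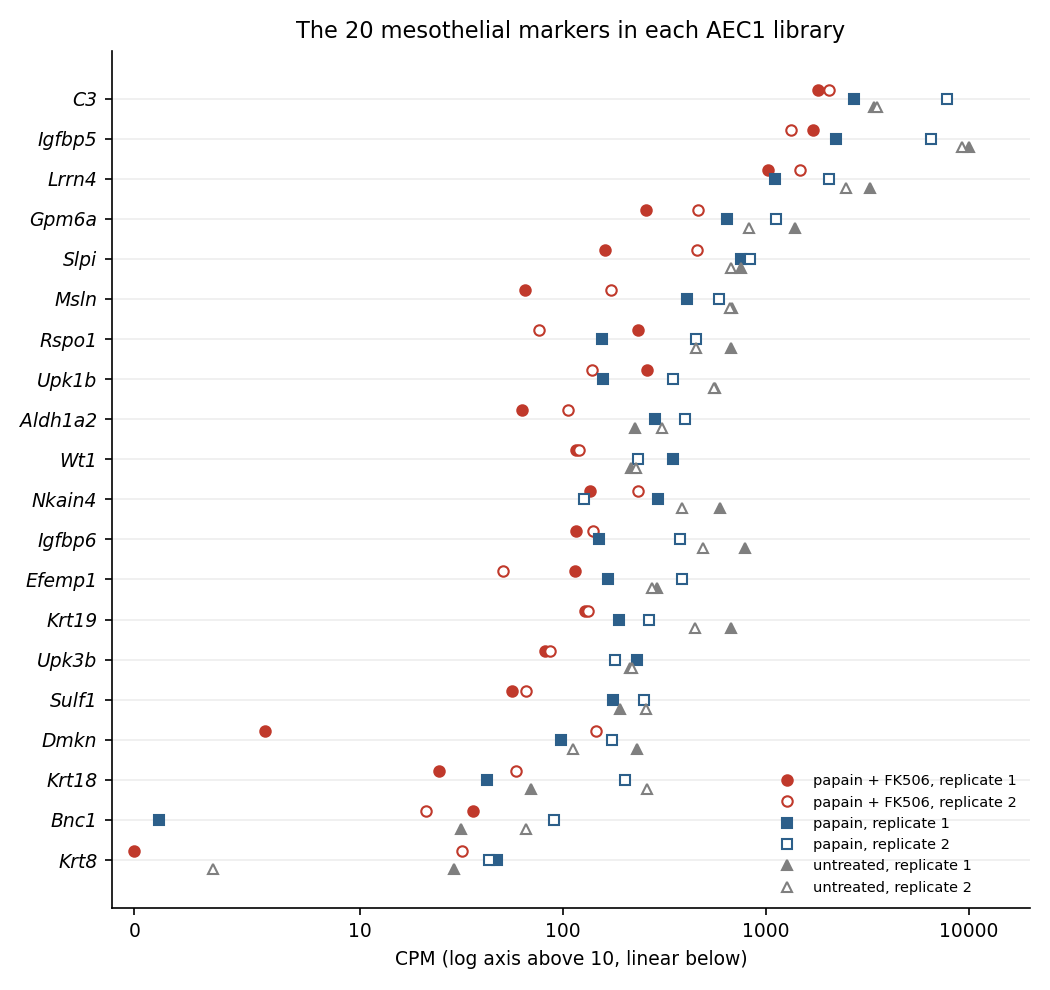
CPM of the 20 mesothelial markers in each AEC1 library (log axis above 10 CPM, linear below), ordered by mean level; filled and open symbols are replicates 1 and 2. In 13 of the 20 both papain + FK506 values lie left of both papain values, and for C3 and Igfbp5 papain replicate 2 lies far to the right of papain replicate 1.

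Of 12 tested members of the tight junction, adherens junction and keratin list, 6 had both papain + FK506 libraries below and 0 above. Across all genes tested these shares were 15% and 17.3%. The list median was -1.15, but 3 of its members (Krt8, Krt18 and Krt19) are also in the mesothelial list. The AEC1 markers (15 tested, median 0.12) and the AEC2 markers (16 tested, median 0.63) each had 2 members above and 2 below. Krt19 stood at 128 and 133 CPM with papain + FK506, 188 and 266 CPM with papain and 673 and 447 CPM in untreated mice. Tjp1, the scaffold ZO-1, stood at 36.2 and 31.8 CPM with papain + FK506 and at 72 and 125 CPM with papain. Ezr, which encodes ezrin and ties the membrane of microvilli to actin, stood at 280 and 366 CPM with papain + FK506, 827 and 906 CPM with papain and 1326 and 1004 CPM in untreated mice. Its groups were well apart, at 323 ± 60.5 CPM with papain + FK506 and 867 ± 56.1 CPM with papain (SD, n = 2 each), and the log2 difference was -1.58 (SE 0.38; limma adjusted p = 0.651). Aqp1, a water channel of endothelial and mesothelial membranes, stood at 351 and 245 CPM with papain + FK506, 676 and 892 CPM with papain and 1948 and 1969 CPM in untreated mice (log2 difference -1.55, SE 0.39). Dpp4, a membrane peptidase, stood at 22.2 and 23.6 CPM with papain + FK506 and at 178 and 153 CPM with papain (difference -2.89 on the log2 scale, SE 0.68). Endothelial markers, which are a further source of Aqp1, summed to 99.1 and 168 CPM with papain + FK506 and 232 and 461 CPM with papain; Pecam1 and Cdh5 were listed at 0 in all 4 libraries, and their part in the Aqp1 difference was not tested. Ezr, Aqp1 and Dpp4, like Msln, are among the 10 with the smallest unadjusted p on the lower side, and none passed limma's test.

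The remaining genes of that set were H2-K1, described with its family, and Myo5b, Ece1, Cygb, Ces1d and Hacd2. Cygb, a globin of fibroblast-like cells, stood at 63 and 168 CPM with papain + FK506 and at 437 and 734 CPM with papain (difference -2.59 on the log2 scale, SE 0.64). Myo5b, a motor of membrane recycling, stood at 1.2 and 3.5 CPM with papain + FK506 and at 67.8 and 212 CPM with papain. Ece1, which activates endothelin, was listed at 0 in both papain + FK506 libraries and at 74.1 and 116 CPM with papain. Hacd2, an enzyme of fatty acid elongation, was likewise listed at 0 in both papain + FK506 libraries and at 90 and 59.5 CPM with papain. Ces1d, a carboxylesterase, stood at 5.8 and 0 CPM with papain + FK506 and at 84.7 and 66.6 CPM with papain. Genes seen in a single group were found on both sides. Among the 8178 genes tested, 20 had at least 50 CPM in both papain + FK506 libraries and 0 in both papain libraries. The reverse held for 14. Replicates of 1 group also differed this way. Of genes at 50 CPM or more in either library of a pair, 14.5% with papain + FK506 and 15.6% with papain were listed at 0 in the other.

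Complement genes overlapped in part with the mesothelial list through C3. Of 12 tested, 5 had both papain + FK506 libraries below and 1 above (beside 15% and 17.3% of all genes tested), with a median of -0.997. C1s1, a protease of the classical pathway, stood at 112 and 278 CPM with papain + FK506 and at 471 and 510 CPM with papain, and C2, which forms the C3 convertase, stood at 99.2 and 137 CPM with papain + FK506 and at 214 and 377 CPM with papain. Serping1, the C1 inhibitor, overlapped at 1498 and 1154 CPM with papain + FK506 and 1318 and 2113 CPM with papain. Saa3, an acute phase protein, was split within the papain pair, at 797 and 1821 CPM with papain + FK506 and 1955 and 35.9 CPM with papain.

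**Figure D3:**
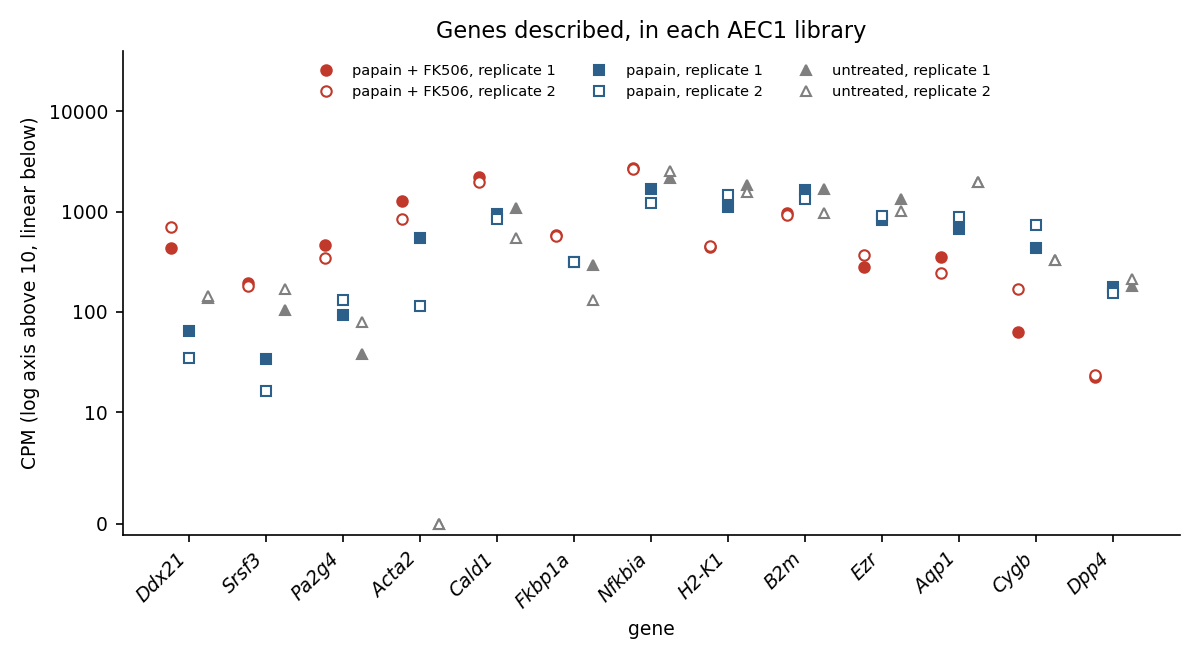
CPM of 13 of the genes described in each AEC1 library (log axis above 10 CPM, linear below); filled and open symbols are replicates 1 and 2. The papain + FK506 values lie above both papain values for the 7 genes on the left and below them for the 6 on the right, and none of the 13 passed limma's test.

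Class I antigen presentation was carried by a few abundant genes. H2-K1, which encodes a classical class I heavy chain, stood at 445 and 449 CPM with papain + FK506 and at 1115 and 1476 CPM with papain; untreated mice had 1822 and 1556 CPM. Both papain + FK506 libraries lay far below every other library, at 447 ± 3.39 CPM against 1296 ± 255 CPM with papain (SD, n = 2 each). The log2 difference was -1.67 (SE 0.36, limma adjusted p = 0.651), and DESeq2 gave -1.77 with an adjusted p of 0.000248. It was between -2.02 and -1.32 in limma when single libraries were left out. H2-K1 was picked as 1 of the 10 smallest unadjusted p on the lower side. That choice favours close replicates, so their closeness and this range are no support for a difference. B2m, the light chain shared by all class I molecules, stood at 960 and 922 CPM with papain + FK506 and at 1623 and 1342 CPM with papain (difference -0.80 on the log2 scale, SE 0.34). H2-D1, the other classical heavy chain, overlapped at 74.7 and 169 CPM with papain + FK506 and 128 and 117 CPM with papain. Tapbp, the chaperone tapasin, overlapped as well, at 195 and 406 CPM with papain + FK506 and 245 and 322 CPM with papain. In all, 10 of 14 members were tested, and 4 lay below and 0 above, beside 15% and 17.3% of all genes tested. All 10 differences were negative and the median was -0.64. The class I heavy chains are near-identical copies, and the sources used here do not say how reads matching several of them were counted, so the split between H2-K1 and H2-D1 is uncertain.

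The promoters of both heavy chains are shown because the genes share a motif; whether their differences in level differ from each other was not tested. Windows from 250 bases before to 50 after the RefSeq start site were searched on both strands for the NF-kB-type motif GGGATTCCC, which 116 of 32851 windows hold (0.353%). Counted by gene, with a match in any of its windows, it was found for 4 of 12 class I presentation genes with a window (H2-D1, H2-K1, H2-Q6 and H2-Q7). The count of windows and the count of genes are unlike units, and their difference was not tested. The windows below are from RefSeq on GRCm38.p6, at chr17:34000298-34000597 on the minus strand for H2-K1 (1 of its 2 windows) and chr17:35262844-35263143 on the plus strand for H2-D1, and capitals mark the motif.
H2-K1: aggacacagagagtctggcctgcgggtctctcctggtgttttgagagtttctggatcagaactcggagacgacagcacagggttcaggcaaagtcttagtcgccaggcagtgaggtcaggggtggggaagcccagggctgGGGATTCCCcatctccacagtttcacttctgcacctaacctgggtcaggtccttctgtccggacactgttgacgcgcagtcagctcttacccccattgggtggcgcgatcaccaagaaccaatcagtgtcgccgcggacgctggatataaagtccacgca
H2-D1: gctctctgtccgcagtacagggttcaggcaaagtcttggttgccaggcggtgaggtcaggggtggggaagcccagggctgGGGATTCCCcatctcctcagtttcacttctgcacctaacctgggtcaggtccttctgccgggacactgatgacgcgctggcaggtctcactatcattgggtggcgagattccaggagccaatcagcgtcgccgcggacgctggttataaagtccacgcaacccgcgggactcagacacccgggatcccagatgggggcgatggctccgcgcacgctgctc
The match begins 110 bases before the start site in H2-K1 and 170 bases before it in H2-D1. It is a match of letters in these windows and no measure of binding. In the list of NF-kB subunits, feedback genes and inflammatory cytokines, 6 of 16 tested lay above and 3 below (beside 17.3% and 15% of all genes tested). Nfkbia, the NF-kB inhibitor that NF-kB itself induces, stood at 2720 and 2635 CPM with papain + FK506 and 1679 and 1206 CPM with papain. Its log2 difference was 0.76 (SE 0.28, limma adjusted p = 0.729). Whether NF-kB had a part in any of these differences was not tested.

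Genes of the actin cytoskeleton and of contraction lay mostly higher with FK506, and limma called none of them. Of 18 tested, 12 had both papain + FK506 libraries above both papain libraries (beside 17.3% of all genes tested) and 2 below, with a median of 0.65. The 12 include Myl9, described below, which passed the filter on low values only through the papain + FK506 group. Both papain + FK506 libraries lay above papain replicate 1 in 14 of them and above papain replicate 2 in 13, beside 28.9% and 31.5% of all genes tested. Actb, cytoplasmic beta-actin, stood at 4808 and 4880 CPM with papain + FK506, 3923 and 2315 CPM with papain and 1950 and 1314 CPM in untreated mice. Cald1, which binds actin and myosin, stood at 2224 and 1970 CPM with papain + FK506 and at 949 and 851 CPM with papain. Its replicates agreed closely in each group, at 2097 ± 180 CPM with papain + FK506 and 900 ± 69.2 CPM with papain (SD, n = 2 each), and the log2 difference was 1.07 (SE 0.37; limma adjusted p = 0.66). Tpm4, a tropomyosin, stood at 1317 and 1176 CPM with papain + FK506 and at 1194 and 723 CPM with papain, and Actn1, which cross-links actin filaments, at 749 and 838 CPM with papain + FK506 and 476 and 361 CPM with papain. The exceptions were Myl6, a non-muscle myosin light chain, at 323 and 418 CPM with papain + FK506 and 569 and 689 CPM with papain, and Actn4, at 285 and 326 CPM with papain + FK506 and 366 and 334 CPM with papain.

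The smooth muscle and myofibroblast markers depended on papain replicate 2. Of 12 tested, 5 lay above and 1 below (beside 17.3% and 15% of all genes tested), and the median of 0.89 became 0.01 without that library. Their sum was 2588 and 2029 CPM with papain + FK506, 1738 and 503 CPM with papain and 240 and 397 CPM in untreated mice. Acta2, smooth muscle alpha-actin, stood at 1272 and 840 CPM with papain + FK506 and at 550 and 115 CPM with papain, and was listed at 0 in both untreated libraries. Its log2 difference was 1.88 (SE 0.88; limma adjusted p = 0.832), and 0.90 to 2.85 when single libraries were left out. Acta2 was 1 of 2 genes that passed limma's test between papain + FK506 and untreated mice (0.0245% of the genes tested), the other being Marcks, a membrane protein that binds actin; papain against untreated gave 0 calls and 761 genes at an unadjusted p under 0.05. Mylk, myosin light chain kinase, stood at 516 and 484 CPM with papain + FK506 and at 470 and 136 CPM with papain, and Des, the intermediate filament desmin, at 361 and 303 CPM with papain + FK506 and 234 and 74.8 CPM with papain. Cnn1, Aspn and Pln were listed at 0 in all 6 libraries.

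Myl9, the regulatory light chain of smooth muscle myosin, was listed at 67.7 and 21.2 CPM with papain + FK506 and at 0 in both papain and both untreated libraries. It passed the filter on low values only through the group where it is high. Its count among the genes above, in the contractile and smooth muscle lists, is therefore no support for a difference. Its promoter is shown as an example of the serum response element of contractile genes, the CArG box, in capitals. The window is from RefSeq on GRCm38.p6 at chr2:156775214-156775513 on the plus strand.
Myl9: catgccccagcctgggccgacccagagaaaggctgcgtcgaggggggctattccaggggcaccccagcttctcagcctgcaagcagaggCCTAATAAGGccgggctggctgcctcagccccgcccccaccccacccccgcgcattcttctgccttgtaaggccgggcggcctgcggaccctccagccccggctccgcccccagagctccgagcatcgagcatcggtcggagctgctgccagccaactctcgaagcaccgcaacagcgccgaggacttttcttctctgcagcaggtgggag
The CArG box was searched by its consensus on both strands. It occurred in 535 of 32851 windows (1.63%). Counted by gene, an unlike unit, it occurred in any window of 5 of 18 contractile genes with a window: Actg1, Cnn2, Myl6, Myl9 and Vcl. The 5 did not share a level pattern: Myl6 lay lower with FK506, Cnn2 overlapped at 66.5 and 195 CPM with papain + FK506 and 233 and 90.2 CPM with papain, Vcl stood at 127 and 48.4 CPM with papain + FK506 and 43.4 and 47.2 CPM with papain, and Actg1 was listed at 14 and 0 CPM with papain + FK506 and at 0 with papain. After TMM scaling the groups overlapped for Vcl.

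**Figure D4:**
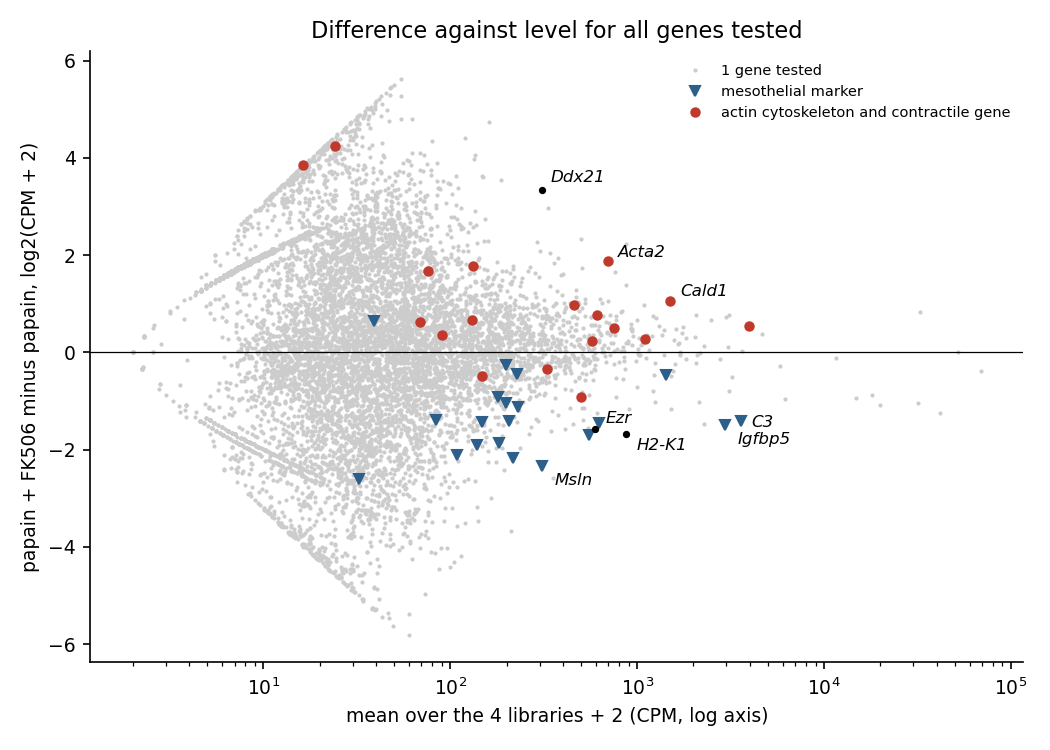
Log2 difference, papain + FK506 minus papain, against mean level over the 4 libraries (log axis) for the 8178 genes tested. The 20 mesothelial markers lie almost all below 0 and the contractile genes mostly above, and the diagonal edges at low level are genes listed at 0 in libraries of either group.

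Some genes of ribosome making lay higher with FK506. Ddx21, a helicase of ribosomal RNA synthesis and processing, had the smallest unadjusted p on the higher side. It stood at 433 and 701 CPM with papain + FK506, 64.6 and 34.9 CPM with papain and 138 and 144 CPM in untreated mice. Both papain libraries were thus lower than both untreated ones, and both papain + FK506 libraries were higher. The mean was 567 ± 189 CPM with papain + FK506 and 49.8 ± 21 CPM with papain (SD, n = 2 each). The log2 difference was 3.33 (SE 0.60, limma adjusted p = 0.651, DESeq2 adjusted p = 2.17e-07), and 2.93 to 3.74 when single libraries were left out. Ddx21 was picked by its p, which favours close replicates, so this range is no support for a difference. Of 16 tested members of the MYC and ribosome biogenesis list, 7 lay above and 0 below, beside 17.3% and 15% of all genes tested. Any of the 7 that passed the filter on low values only through the papain + FK506 group were not counted apart. The list median was 0.49 and ranged from 0.10 to 0.64 over the alternatives. Ncl, nucleolin, stood at 1708 and 2188 CPM with papain + FK506 and at 1601 and 958 CPM with papain. Nop58, a core protein of box C/D snoRNPs, stood at 604 and 517 CPM with papain + FK506 and at 232 and 297 CPM with papain, and Pa2g4, a growth-regulated nucleolar protein, at 459 and 348 CPM with papain + FK506 and 93.2 and 131 CPM with papain (chosen after its values were seen). Npm1, nucleophosmin, overlapped at 352 and 446 CPM with papain + FK506 and 409 and 258 CPM with papain. Myc itself was listed at 31.5 and 43.6 CPM with papain + FK506 and at 30.7 and 0 CPM with papain.

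Most of the other genes with the smallest unadjusted p on the higher side were listed at 0 with papain. Srsf3, a splicing factor, was an exception, at 195 and 182 CPM with papain + FK506, 33.9 and 16.4 CPM with papain and 106 and 170 CPM in untreated mice (log2 difference 2.75, SE 0.74; limma adjusted p = 0.651). Tpp2, a cytosolic peptidase, stood at 135 and 99.1 CPM with papain + FK506 and at 6.4 and 0 CPM with papain. Bcl2l1, the anti-apoptotic Bcl-xL, stood at 75.8 and 110 CPM with papain + FK506 and was listed at 0 with papain, while untreated mice had 129 and 39.1 CPM. Tuba4a, an alpha-tubulin, showed the same order, at 87.5 and 63.7 CPM with papain + FK506, 0 in both papain libraries and 144 and 44.9 CPM untreated. For Mak16 (ribosome assembly), Kif15 (a mitotic kinesin), Has2 (hyaluronan synthesis), Ska1 (kinetochore attachment) and Ydjc, all 4 papain and untreated libraries were listed at 0, beside 50.7 to 122 CPM in the papain + FK506 libraries. These 5 genes passed the filter on low values only through the group where they are high, so their place in this ranking is no support for a difference. Has2 stood at 84 and 97.9 CPM with papain + FK506.

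No gene of the drug's own binding proteins or of the calcineurin pathway passed the test. Fkbp1a, the binding protein itself, stood at 585 and 574 CPM with papain + FK506, 316 and 317 CPM with papain and 296 and 131 CPM in untreated mice. Replicates were nearly equal in both papain groups, while the untreated pair, which shares the fit, was not. The log2 difference was 0.72 (SE 0.50; limma adjusted p = 0.902), and 0.69 (SE 0.35; adjusted p = 0.730) in a limma fit of the 4 papain and papain + FK506 libraries alone. Of 13 tested FK506-binding proteins, 5 lay above and 0 below (beside 17.3% and 15% of all genes tested), with a median of 0.72. Fkbp2, of the endoplasmic reticulum, stood at 152 and 165 CPM with papain + FK506 and at 101 and 68.7 CPM with papain, and Fkbp9 at 56 and 54.3 CPM with papain + FK506 and 0 in both papain libraries (chosen after its values were seen). Fkbp5, a glucocorticoid-induced member, was split at 196 and 26 CPM with papain + FK506 and stood at 42.4 and 55.4 CPM with papain.

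Of 19 tested calcineurin, NFAT and NR4A genes, 3 lay above and 4 below, beside 17.3% and 15% of all genes tested. Their median of 0.07 stood beside 0.08 for all genes tested. Rcan1, the feedback inhibitor of calcineurin that NFAT induces, stood at 5.8 and 22.4 CPM with papain + FK506 and at 108 and 0 CPM with papain, so the papain pair alone spans its whole range. Its log2 difference was -0.13 (SE 2.18), and no difference was detectable at that spread. Nr4a1, a calcium-responsive nuclear receptor, overlapped at 336 and 89.6 CPM with papain + FK506 and 193 and 161 CPM with papain. Nfatc1 overlapped too, at 24.5 and 27.1 CPM with papain + FK506 and 48.7 and 1 CPM with papain. Ppp3r1, the regulatory subunit of calcineurin, stood at 413 and 428 CPM with papain + FK506 and at 256 and 382 CPM with papain. After TMM scaling the groups overlapped for Ppp3r1 as well.

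**Figure D5:**
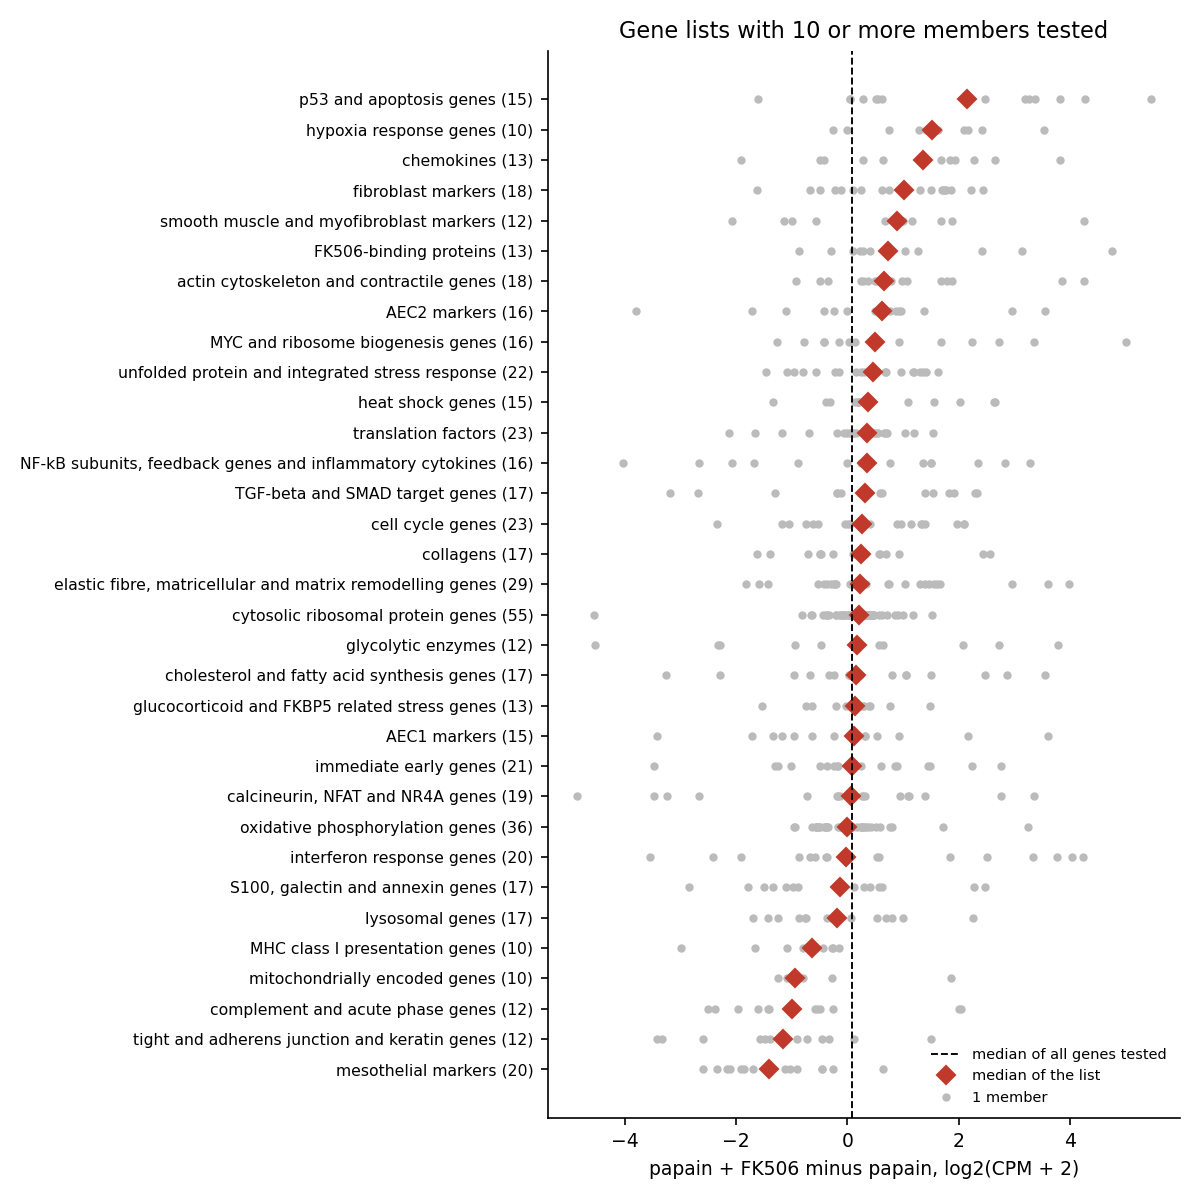
Log2 difference, papain + FK506 minus papain, of the members of each gene list with 10 or more members tested (grey) and their median (red), with the median of all genes tested, 0.08, as a dashed line; the number tested is in brackets. The mesothelial median of -1.42 is the lowest and the p53 and apoptosis median of 2.14 the highest, and no member of any list passed limma's test.

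Several chemokines lay higher with FK506 and Retnla lay lower, none past the test, and the papain replicates were far apart for some of them. Of 13 tested chemokines, 6 lay above and 1 below (beside 17.3% and 15% of all genes tested), with a median of 1.36. Among all 25 chemokines of the list, 19 were listed at 0 in each untreated library. Any that passed the filter on low values only through the papain + FK506 group are no support and were not counted apart. Their sum was 2305 and 3043 CPM with papain + FK506, 1835 and 853 CPM with papain and 858 and 757 CPM in untreated mice. Cxcl1, a neutrophil attractant, stood at 417 and 522 CPM with papain + FK506, 169 and 43.1 CPM with papain and 14.6 and 0 CPM untreated (log2 difference 2.27, SE 1.19; limma adjusted p = 0.902; chosen after its values were seen). Cxcl2, its close relative, stood at 307 and 543 CPM with papain + FK506 and was split at 558 and 17.4 CPM with papain, and Cxcl13, a B cell attractant, overlapped at 390 and 744 CPM with papain + FK506 and 49.8 and 310 CPM with papain. Of the IL-4 and IL-13 response list 7 of 22 members were tested, with 2 below and 0 above. Retnla, which macrophages and epithelium make in response to these cytokines, stood at 7 and 75.5 CPM with papain + FK506, 156 and 594 CPM with papain and 1.1 and 0 CPM in untreated mice (log2 difference -3.67, SE 1.6; limma adjusted p = 0.822). All 4 papain libraries thus exceeded the untreated ones, and the lower pair was that with FK506. Eosinophil, basophil and mast cell markers were listed at 0 for all 15 members in every library, and the 20 markers of macrophages, monocytes and dendritic cells came to a total of 346 and 353 CPM with papain + FK506 and 320 and 271 CPM with papain.

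The same contrast in AEC2 libraries gave 0 calls by limma, and 0 of 8870 genes passed limma's test for a difference between the 2 sorts in the response to FK506 (688 had an unadjusted p under 0.05, where chance would give 444, and the smallest adjusted p was 0.519). The mesothelial list summed to only 1019 and 1528 CPM with papain + FK506 and 1134 and 920 CPM with papain in AEC2, and those groups overlapped. H2-K1 differed by -1.71 in AEC1 and -0.46 in AEC2, a difference between sorts of -1.25 (SE 0.53; limma adjusted p = 0.635). Ezr differed by -1.62 in AEC1 and -0.04 in AEC2, a difference between sorts of -1.58 (SE 0.58; adjusted p = 0.537 by limma). The response of neither gene is therefore shown to be particular to AEC1. By the smallest unadjusted p the interaction was led by Ssbp4, Brox and Uckl1, all listed at 0 in some groups. Ssbp4 stood at 47.8 and 67.2 CPM with papain + FK506 and 0 and 1 CPM with papain in AEC1, and at 0 in both papain + FK506 libraries and 119 and 85.4 CPM with papain in AEC2.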

How the data were processed

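Gene expression was measured from 10 ng of total RNA of sorted lung cells with a Lexogen QuantSeq kit, which reads 3' ends, per the labels' protocols. The authors deposited CPM (depth-scaled read counts) for 22083 genes. STAR 2.7.0c, featureCounts 1.6.0, mm10 and GRCm38.p6 are named in the submitters' processing notes, with no role given; what the values were divided by, the strand setting and the handling of multiply matching reads are not given in the sources used here. Groups were taken from the labels. The values below 25 CPM were whole multiples of what 1 read is worth, to within 0.1 read, in 100% of cases, which gave the reads per library; the count tests on these reads called 0 genes (edgeR), 84 (DESeq2) and 1 (limma's voom).

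After division by TMM factors (edgeR 4.0.16) and addition of 2 CPM, the log2 scale was used for a linear model in limma 3.58.1, R 4.3.3 (empirical Bayes with trend, two-sided, Benjamini-Hochberg over all genes, threshold 0.05; DESeq2 1.42.0 as an alternative). Genes needed 10 CPM in at least 2 of the 6 AEC1 libraries. Fold changes on this scale understate the change of low genes. The interaction with AEC2 used 8 libraries. P-values measure only the spread between these libraries, which may be technical. With 2 libraries against 2, summed values cannot reach the threshold in an exact test and are given without a p. Intervals cover counting error only. No library was dropped or imputed. The procedure was tested on simulated data, where it was required to recover only a large change at a spread far below that of these data. Recovery at the spread of these data is not given here, so the lack of calls does not show that genes did not differ.

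The libraries and the 49 gene lists were chosen with earlier results of these data known. Genes were named by rule: with 0 passing, the 10 with the smallest unadjusted p in each direction, the 3 most abundant tested members of a list, and 10 fixed genes (Rcan1, Nr4a1, Nfatc1, Fkbp1a, Fkbp5, Ager, Hopx, Pdpn, Aqp5 and Cav1). All other genes named were chosen after their values were seen. Promoters are from RefSeq on GRCm38.p6. Alternatives changed the pseudocount, filter, scaling, variance model and tool, added a replicate block and left out each library. Some genes that the rule names are not reported here.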

Additional observations from a re-analysis of the deposited data

How the results depend on the processing

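No gene was called under the limma settings on CPM or in edgeR's quasi-likelihood test. Fits with a library left out also called 0, but they leave an arm of 1 library that is assumed to vary like the other groups, and say little about stability. DESeq2 called 25 genes higher and 59 lower, and limma's voom 1 lower. Genes at an unadjusted p under 0.05 numbered 31 to 389 higher and 64 to 273 lower when single libraries were left out. The mesothelial median stayed between -2.02 and -0.81 with single libraries left out, the smooth muscle median between 0.01 and 1.32, the contractile median between 0.59 and 0.79, the class I median between -0.86 and -0.58, and the ribosome biogenesis median between 0.27 and 0.64. The ribosome biogenesis median was 0.64 on deposited CPM without further scaling and 0.10 with a filter at 100 CPM, a setting chosen after seeing the data; the cause was not tested. Unscaled CPM moved the median of all genes to 0.19. Directions reversed for Rcan1 (0.24 with a pseudocount of 1 CPM, 0.49 in voom) and Nr4a1 (0.086 in edgeR, 0.047 in DESeq2). With single libraries left out the log2 difference spanned -2.99 to 2.7 for Rcan1, -1.05 to 0.72 for Nr4a1, -0.94 to 1.77 for Fkbp5, -0.76 to 0.26 for Pdpn, -3.18 to 0.85 for Aqp5, -0.39 to 1.43 for Ager, -0.88 to 3.04 for Nfatc1 and -1.05 to 0.13 for Lrrn4. Mylk, Ncl and Malat1 kept their direction with single libraries left out, at 0.08 to 1.56, 0.25 to 0.73 and 0.51 to 1.15. In papain replicate 2, C3 and Igfbp5 were high: without it their differences were -0.51 and -0.58. Same-numbered libraries did not deviate together (correlation 0.02 between papain + FK506 and papain). Replicates differed too widely for this to show whether same-numbered samples were handled together, and the labels give only a number. A fit with the replicate number as a block called 0 genes. Depth limits genes near 3 reads, and the spread between replicates limits the rest.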

Other observations

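The first 4 lists given here had more members above than below, though members with overlapping groups made up a large share of each. Members that passed the filter on low values only through the papain + FK506 group are no support and were not counted apart. Of 15 tested p53 and apoptosis genes, 6 had both papain + FK506 libraries above both papain libraries and 0 below, beside 17.3% and 15% of all genes tested, with a median log2 difference of 2.14. That median rests on low genes. The 3 most abundant members overlapped: Cdkn1a, the cell cycle inhibitor p21, stood at 337 and 204 CPM with papain + FK506 and at 218 and 242 CPM with papain; Mcl1, a survival protein, at 128 and 180 CPM with papain + FK506 and 156 and 58.4 CPM with papain; and Mdm2, which degrades p53, at 237 and 69.6 CPM with papain + FK506 and 148 and 42 CPM with papain. Fas, the death receptor, stood at 33.8 and 44.8 CPM with papain + FK506 and was listed at 0 in both papain libraries. Of 10 tested hypoxia response genes, 5 lay above and 0 below, with a median of 1.51. Vegfa, which drives vessel growth, stood at 169 and 80.2 CPM with papain + FK506 and at 10.6 and 43.1 CPM with papain, and Adm, a vasodilator peptide, at 60.7 and 61.3 CPM with papain + FK506 and 28.6 and 13.3 CPM with papain. No member of either list passed limma's test.

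Of 23 tested translation factors, 10 lay above and 1 below (beside 17.3% and 15% of all genes tested), with a median of 0.35. Eif3a, a subunit of the initiation complex, stood at 1135 and 1411 CPM with papain + FK506 and at 741 and 700 CPM with papain. Eif5a stood at 600 and 495 CPM with papain + FK506 and at 362 and 127 CPM with papain, while Eef1a1, the main elongation factor, overlapped at 595 and 582 CPM with papain + FK506 and 699 and 443 CPM with papain. Of 55 cytosolic ribosomal protein genes, 16 lay above and 6 below, with a median of 0.20; both papain + FK506 libraries lay above papain replicate 2 in 36 of the 55 and above papain replicate 1 in 18, beside 31.5% and 28.9% of all genes tested. Malat1, a nuclear noncoding RNA, stood at 36770 and 49205 CPM with papain + FK506, 29636 and 15522 CPM with papain and 69646 and 95482 CPM in untreated mice (log2 difference 0.84, SE 0.31; limma adjusted p = 0.729). Collagens overlapped: of 17 tested, 2 lay above and 3 below, and Col1a1 stood at 4243 and 2306 CPM with papain + FK506 and at 4018 and 1704 CPM with papain.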
